A study of Oncorhynchus mykiss with 12 samples.

Results

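The miR-200 and miR-429 sequences of rainbow trout (Oncorhynchus mykiss) liver were described across fasted and refed fish. The family was represented by 4 sequences of the 1696 in the deposited small RNA table, named there fru-miR-200a_R-1, fru-miR-200b_R+1, dre-miR-429a and ssa-miR-200b-5p. They were chosen by name, and also because earlier results of the same libraries had shown them higher in the high-carbohydrate group, so their levels in that group are given as a description with no test. The 12 libraries came from livers of adult wild-type fish, the strain given as Walbaum, with 4 fish per group. The fasted group (fish 7, 8, 10 and 13) had been without food for 4 days. The noCHO group (fish 20, 21, 31 and 33) was acutely refed with no carbohydrates, and the highCHO group (fish 38, 45, 49 and 50) was acutely refed with high carbohydrates. The labels give no time after the meal, no other diet component and no batch. Each library was made from whole liver, in which fewer cells of a type and less RNA per cell cannot be told apart, and p-values measure the spread between these fish.

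The miR-200 family is a group of related microRNAs made mainly in epithelial cells. In mammals its members come from a pair of clusters, one holding miR-200b, miR-200a and miR-429 and the other miR-200c and miR-141. Each hairpin precursor gives a 3p strand, which is usually the abundant one, and a 5p strand that is mostly degraded. In mammals the 3p strands repress ZEB1 and ZEB2, transcription factors that shut off E-cadherin, and so help to keep cells epithelial. In mammalian liver the family is known more from the bile duct epithelium than from hepatocytes.

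The sequences show how closely the members resemble each other and why their counts can and cannot be separated. They are printed 5′ to 3′ as DNA letters from the deposited table, with the seed, bases 2 to 8, in capitals.
fru-miR-200a_R-1: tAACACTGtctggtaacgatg
fru-miR-200b_R+1: tAATACTGcctggtaatgatgat
dre-miR-429a: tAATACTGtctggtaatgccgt
ssa-miR-200b-5p: cATCTTACctgacagtgctgga
dre-miR-141-3p: tAACACTGtctggtaacgatgc
dre-miR-200a-3p_R+1_1ss22TA: tAACACTGtctggtaacgatgaa
PC-3p-27826_13: tAACACTGtctggtaatgatgtca
ssa-miR-200a-1-5p: cATCTTACaaggcagttttgga
ssa-miR-200a-2-5p: cATCTTACgaggcagcattgga

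The 3p members fell into 2 seed groups. Counting positions from 1 at the 5′ end and giving the miR-200a base first, the miR-200a and miR-200b 3p strands differed by C4T inside the seed and by T9C and C17T outside it, so that 18 of 21 bases were identical. The strands of miR-200b and miR-429a shared the seed AATACTG and differed, miR-200b base first, by C9T, A19C, T20C and A22T. The AACACTG seed was carried by 4 sequences of the table, and fru-miR-200a_R-1 held 99.8% of their counts. Of the 5 sequences with the AATACTG seed, fru-miR-200b_R+1 and dre-miR-429a together held 99.8% of the counts. The 21 bases of fru-miR-200a_R-1 are also the first 21 of dre-miR-141-3p, so reads of that length from miR-200a and miR-141 cannot be told apart, and the row called miR-200a may hold both. The longer row dre-miR-141-3p had 6 estimated counts in all, and the longer miR-200a row dre-miR-200a-3p_R+1_1ss22TA had 8.5. Both totals include fractions of shared reads, so they do not count reads particular to either sequence.

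The family was represented in these livers mostly by its miR-200a sequence. Summed over the 12 libraries, fru-miR-200a_R-1 had 34769 estimated counts, fru-miR-200b_R+1 had 10343, dre-miR-429a had 1134 and ssa-miR-200b-5p had 170. Ranked by level among the 340 sequences abundant enough to test, fru-miR-200a_R-1 stood between places 29 and 57 in the 12 libraries, and fru-miR-200b_R+1 between 47 and 87. The place of dre-miR-429a ranged from 106 to 273 and that of ssa-miR-200b-5p from 186 to 331. The third seed group, ATCTTAC, held 5 sequences, all named as 5p strands, and ssa-miR-200b-5p held 52.2% of its 325.5 counts. All 4 members passed the filter on low counts. The ssa-miR-200b-5p sequence did so only with highCHO fish 38 among the libraries, and it no longer passed when that fish was left out.

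The libraries differed in ways that bear on these values. Total estimated counts ran from 197684 in highCHO fish 49 to 3057706 in noCHO fish 33. Of the reads that contained the 3′ adapter, 14.2 to 32.2% had inserts shorter than 15 nt in the highCHO group. The share was 7.63 to 11.6% in the fasted group and 6.18 to 13.0% in the noCHO group. Of the mappable reads, 25.5 to 41.2% counted as miRNA in the highCHO group, lowest in fish 38, below the 43.1 to 45.8% of the fasted and the 44.4 to 56.0% of the noCHO group, and the part of this share in the family's levels was not tested. By the share of a let-7c variant among let-7a-like reads the libraries formed 2 sets that the labels do not name. Library set 1 held all fasted fish and noCHO fish 20 and 21 (0.942 to 1.42%), and library set 2 held the whole highCHO group together with noCHO fish 31 and 33 (3.32 to 3.81%). The highCHO and fasted fish therefore shared no library set, and a fit with library set as a term could separate them only through the 4 noCHO fish. Highest of the 12 for summed pancreas miRNAs, by 40.3 times, was highCHO fish 38, and each highCHO value below is given with and without it.

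The most abundant member, fru-miR-200a_R-1, was highest in the highCHO group and lowest in the noCHO group. Levels are in CPM, each count scaled to its library's total after TMM correction. In fasted fish 7, 8, 10 and 13 its level was 1643, 1520, 2118 and 2211 CPM. In noCHO fish 20, 21, 31 and 33 it was 1587, 1344, 1195 and 1216 CPM, and in highCHO fish 38, 45, 49 and 50 it was 4687, 3056, 3171 and 1807 CPM. All 4 highCHO fish stood above all noCHO fish, with or without fish 38, whereas highCHO fish 50 lay within the fasted range. The group means were 1873 ± 342 CPM in fasted, 1335 ± 180 CPM in noCHO and 3180 ± 1179 CPM in highCHO fish (SD, n = 4), and 2678 ± 757 CPM in highCHO fish without fish 38 (n = 3). The fitted log2 difference of highCHO from noCHO was 1.25 (SE 0.25), or 1.00 (SE 0.22) without fish 38. From fasted it was 0.76 (SE 0.25), or 0.52 (SE 0.22) without that fish.

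The second 3p strand, fru-miR-200b_R+1, stood apart in 1 highCHO fish and overlapped between groups otherwise. Its level was 351, 388, 494 and 652 CPM in fasted fish 7, 8, 10 and 13, and 335, 501, 398 and 385 CPM in noCHO fish 20, 21, 31 and 33. In highCHO fish 38 it was 1896 CPM, and in fish 45, 49 and 50 it was 531, 425 and 282 CPM. Fish 38 was 2.91 times the next highest library, and fish 50 was the lowest of all 12. The highCHO mean of 784 ± 749 CPM (SD, n = 4) dropped to 413 ± 125 CPM without fish 38 (n = 3), beside 471 ± 135 CPM in fasted and 405 ± 69.6 CPM in noCHO fish (SD, n = 4). The fitted log2 difference of highCHO from fasted was 0.74 (SE 0.49) with fish 38 and -0.19 (SE 0.27) without it, and from noCHO it was 0.96 (SE 0.49) and 0.02 (SE 0.27). With library set as a term and all 12 libraries these differences were 0.83 (SE 0.88) and 1.00 (SE 0.65). The higher mean of miR-200b in the highCHO group thus rested on that library.

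Of the 4 members, dre-miR-429a, which carries the miR-200b seed on a different 3′ end, had the largest fitted difference in highCHO fish when library set was not a term. Its level was 19.2, 23.9, 42.2 and 31.5 CPM in fasted fish 7, 8, 10 and 13, and 11.3, 12.2, 37.7 and 49.5 CPM in noCHO fish 20, 21, 31 and 33. In highCHO fish 38, 45, 49 and 50 it was 273, 154.8, 132.7 and 35.4 CPM. Fish 38, 45 and 49 stood above every fasted and noCHO fish, and fish 50 lay within both ranges. The mean was 149 ± 97.7 CPM in highCHO fish (SD, n = 4) and 108 ± 63.6 CPM without fish 38 (n = 3), beside 29.2 ± 10.0 CPM in fasted and 27.7 ± 19.01 CPM in noCHO fish (SD, n = 4). From fasted the fitted log2 difference was 2.36 (SE 0.61), or 1.87 (SE 0.58) without fish 38, and from noCHO it was 2.40 (SE 0.60), or 1.88 (SE 0.57). With library set as a term, the difference from fasted was 0.48 (SE 0.88), the smallest of the 4 members, and that from noCHO was 1.78 (SE 0.63), below that of ssa-miR-200b-5p.

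The library sets also divided the noCHO fish for dre-miR-429a. The noCHO fish of set 1 were at 11.3 and 12.2 CPM, below all 4 fasted fish of the same set, while the noCHO fish of set 2 were at 37.7 and 49.5 CPM. Within set 2 the highCHO fish ran from 35.4 to 273 CPM, with fish 50 below both noCHO fish and the other 3 above both. For fru-miR-200a_R-1 the noCHO fish were lower in set 2, at 1195 and 1216 CPM, than in set 1, at 1344 and 1587 CPM, and with library set as a term its highCHO difference was 1.04 (SE 0.44) from fasted and 1.40 (SE 0.33) from noCHO on the log2 scale.

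The 5p strand ssa-miR-200b-5p was sparse. Its estimated counts were 7.5, 6.5, 3.5 and 14 in fasted fish 7, 8, 10 and 13, and 5.5, 11, 9 and 12 in noCHO fish 20, 21, 31 and 33. In highCHO fish 38, 45, 49 and 50 they were 82, 8.5, 1.5 and 9. As levels, fish 38 had 42.7 CPM, 4.35 times the next library, and the other 3 highCHO fish had 9.82, 6.63 and 8.60 CPM. The fasted fish lay between 3.99 and 7.78 CPM and the noCHO fish between 4.37 and 8.41 CPM, so that highCHO fish 49 was within both ranges. Without fish 38 and without a filter on low counts, the fitted log2 difference of highCHO was 0.62 (SE 0.63) from fasted and 0.49 (SE 0.62) from noCHO, against 1.82 (SE 0.54) and 1.73 (SE 0.52) with it. With library set as a term and all 12 libraries the differences were 2.62 (SE 0.94) and 2.13 (SE 0.65).

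**Figure D1:**
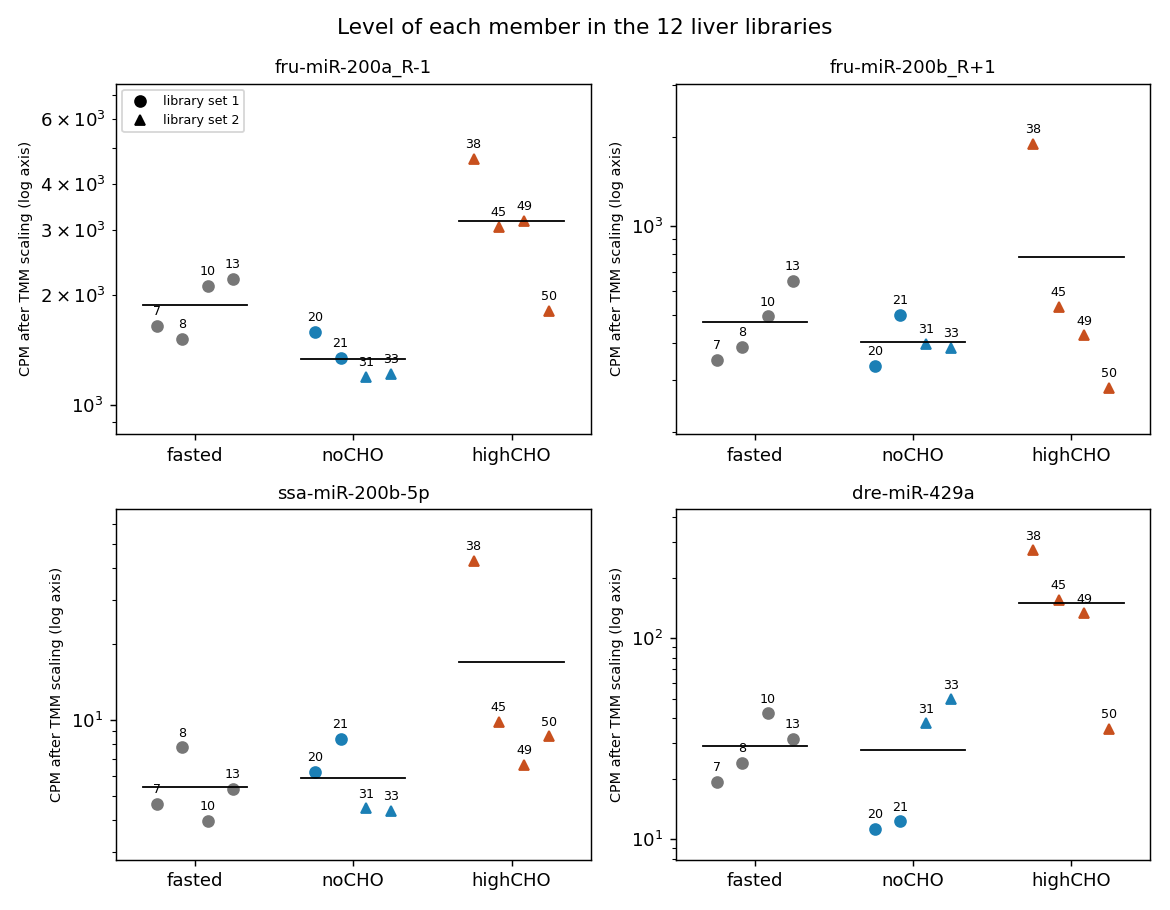
Level of each of the 4 members in each of the 12 libraries, in CPM on a log axis, by group, with circles for library set 1, triangles for library set 2, fish numbers beside the points and a horizontal line at each group mean. Fish 38 is the highest library in all 4 panels, at 1896 CPM for fru-miR-200b_R+1 where no other library passes 652, and fish 50 sits among the fasted and noCHO fish for dre-miR-429a.

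Refeeding without carbohydrate was the comparison that had no part in the choice of members, and none of the 3 members that passed the low-count filter without the highCHO group's high library changed in it past the threshold. The fitted log2 differences of noCHO from fasted were -0.49 (SE 0.25) for fru-miR-200a_R-1, -0.22 (SE 0.48) for fru-miR-200b_R+1 and -0.03 (SE 0.59) for dre-miR-429a. In edgeR's quasi-likelihood test with Benjamini-Hochberg adjustment over the 340 sequences, the adjusted p was 0.772 for fru-miR-200a_R-1, 0.993 for fru-miR-200b_R+1 and 0.9998 for dre-miR-429a. The spread in these tests came from all 12 libraries, highCHO fish 38 among them. Without that fish the differences were -0.48 (SE 0.21) for fru-miR-200a_R-1, -0.21 (SE 0.25) for fru-miR-200b_R+1 and -0.01 (SE 0.54) for dre-miR-429a. The sparse ssa-miR-200b-5p, with a fitted difference of 0.09 (SE 0.57), is given with no test, since it entered the fit through the highCHO group. The call rate over all sequences was 0% in this contrast, with 23 sequences at an unadjusted p under 0.05 and 2 called by DESeq2. Of the noCHO fish, 3 of 4 were below every fasted fish for fru-miR-200a_R-1. The groups overlapped for each of the 4 members, where 3.82% of the tested sequences lay wholly higher and 0.294% wholly lower in noCHO fish. Within library set 1, with 4 fasted and 2 noCHO fish, the log2 difference was -0.36 for fru-miR-200a_R-1 and -0.16 for fru-miR-200b_R+1. For dre-miR-429a it was -1.29 (SE 0.41), with an adjusted p of 0.237 in edgeR's quasi-likelihood test.

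In the highCHO contrasts the members were read only against the background of the table. Their median log2 difference from fasted was 1.29, or 0.57 without fish 38, beside 0.03 over all 340 sequences in the fit of 12 libraries. From noCHO it was 1.49, or 0.74 without fish 38, beside -0.004 over all. Each median of the members has the sparse ssa-miR-200b-5p as a middle value, and that sequence did not pass the filter without fish 38. Its value without that fish comes from a fit with no filter on low counts. None of the 4 members had groups that did not overlap against fasted, where 6.18% of the tested sequences lay wholly higher in highCHO fish. Against noCHO 1 of the 4 did, fru-miR-200a_R-1, where the share over all was 3.53%. The edgeR test called 6.18% of all sequences against fasted and 2.35% against noCHO. These contrasts had chosen the members, and both share the highCHO libraries, so nothing is read from the medians or the counts.

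**Figure D2:**
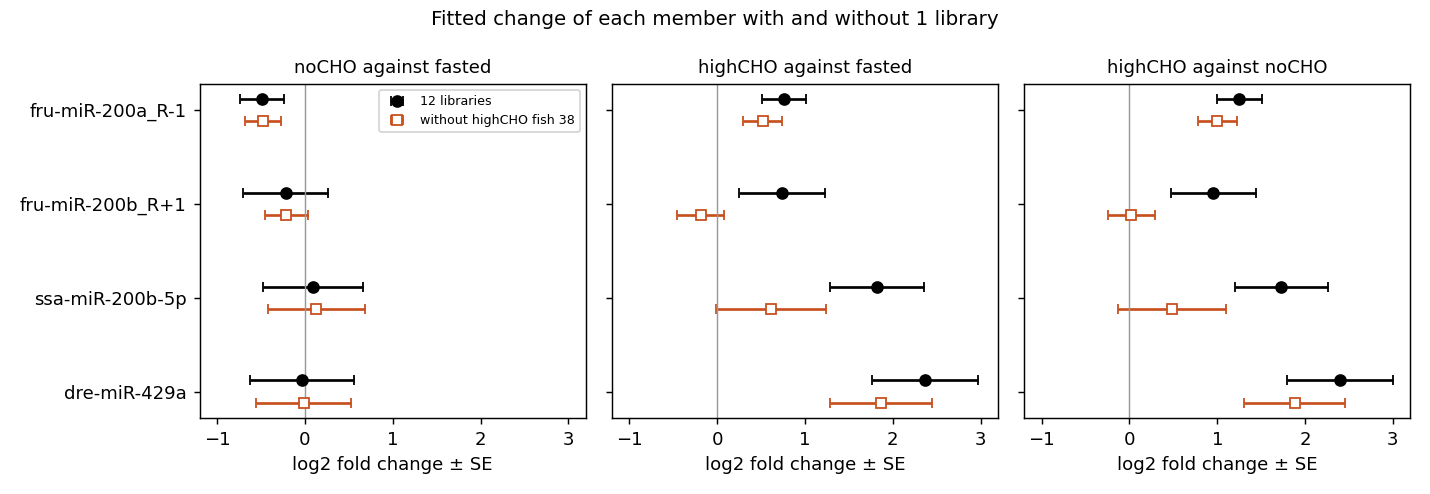
Fitted log2 difference of each member in the 3 contrasts, with bars of 1 SE, for all 12 libraries (filled circles) and without highCHO fish 38 (open squares). The open squares of ssa-miR-200b-5p come from a fit with no filter on low counts. The noCHO values lie between -0.49 and 0.13, and fru-miR-200b_R+1 moves from 0.74 to -0.19 against fasted when fish 38 is left out.

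Summed, the 4 members came to 2379 ± 473 CPM in fasted, 1774 ± 152 CPM in noCHO and 4130 ± 1996 CPM in highCHO fish (SD, n = 4), and to 3207 ± 930 CPM in highCHO fish without fish 38 (n = 3). The lowest fasted fish, at 1940 CPM, and the highest noCHO fish, at 1939 CPM, met. On the sample total without TMM factors, the group means were 2594, 1713 and 4177 CPM, in the same order.

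Ratios between members within 1 library do not depend on how libraries are scaled. The share of dre-miR-429a in the sum of dre-miR-429a and fru-miR-200b_R+1, the sequences with 1 seed, was 5.18, 5.80, 7.87 and 4.61% in fasted fish 7, 8, 10 and 13. In noCHO fish 20, 21, 31 and 33 it was 3.26, 2.39, 8.64 and 11.4%, and in highCHO fish 38, 45, 49 and 50 it was 12.6, 22.6, 23.8 and 11.1%. The fasted fish lay between the noCHO fish of set 1 and those of set 2. All highCHO fish were above every fasted fish, and all except fish 50 were above every noCHO fish. For fish 49, with 126.2 counts, the exact 95% binomial interval ran from 16.7 to 32.2%, and for fish 38, with 4161 counts, from 11.6 to 13.6%. These intervals cover counting error only. The means were 5.87 ± 1.42% in fasted, 6.42 ± 4.32% in noCHO and 17.5 ± 6.57% in highCHO fish (SD, n = 4), or 19.2 ± 6.97% without fish 38 (n = 3).

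The balance of the miR-200a and miR-200b 3p strands differed between fish 38 and the rest of its group. The share of fru-miR-200a_R-1 in the sum of both miR-200 3p strands was 71.2% in fish 38 and 85.2, 88.2 and 86.5% in fish 45, 49 and 50. Fish 38 was the lowest of the 12 libraries, and those other 3 fish were the highest. In fasted fish the share was 80.1 ± 2.21% and in noCHO fish 76.6 ± 4.20% (SD, n = 4). Of these strands alone, fish 38 thus carried proportionally more miR-200b, and the other highCHO fish proportionally more miR-200a, than any fasted or noCHO fish. With dre-miR-429a and ssa-miR-200b-5p counted in, this did not hold for each fish. Of the counts of all 4 members, fru-miR-200a_R-1 made up 81.5% in highCHO fish 45 and 81.8% in noCHO fish 20.

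The share of ssa-miR-200b-5p beside fru-miR-200b_R+1 varied less with fish 38. These rows were paired by name only. The bases of ssa-miR-200b-5p are close to those of dre-miR-200a-5p_2ss10GT18CA, so whether both rows come from the same hairpin is not known. Of the counts of both rows, ssa-miR-200b-5p made up 1.22 ± 0.549% in fasted, 1.43 ± 0.365% in noCHO and 2.13 ± 0.619% in highCHO fish (SD, n = 4), and 2.10 ± 0.755% without fish 38 (n = 3). In fish 38 it was 2.21%, with an exact 95% binomial interval of 1.76 to 2.73%, and in fish 50 it was 2.96%, with one of 1.36 to 5.55%. The groups overlapped.

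Between noCHO and fasted fish none of the 3 shares differed past the threshold. The difference was 0.206 percentage points for the 5p share, with p = 0.571 in a two-sided exact permutation test, 0.552 points for the miR-429a share (exact p = 0.8) and -3.50 points for the miR-200a share (exact p = 0.229). After Benjamini-Hochberg adjustment over the 3 tests the exact permutation p-values were 0.8, 0.8 and 0.686. With 4 fish against 4 the smallest p possible is 0.0286.

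**Figure D3:**
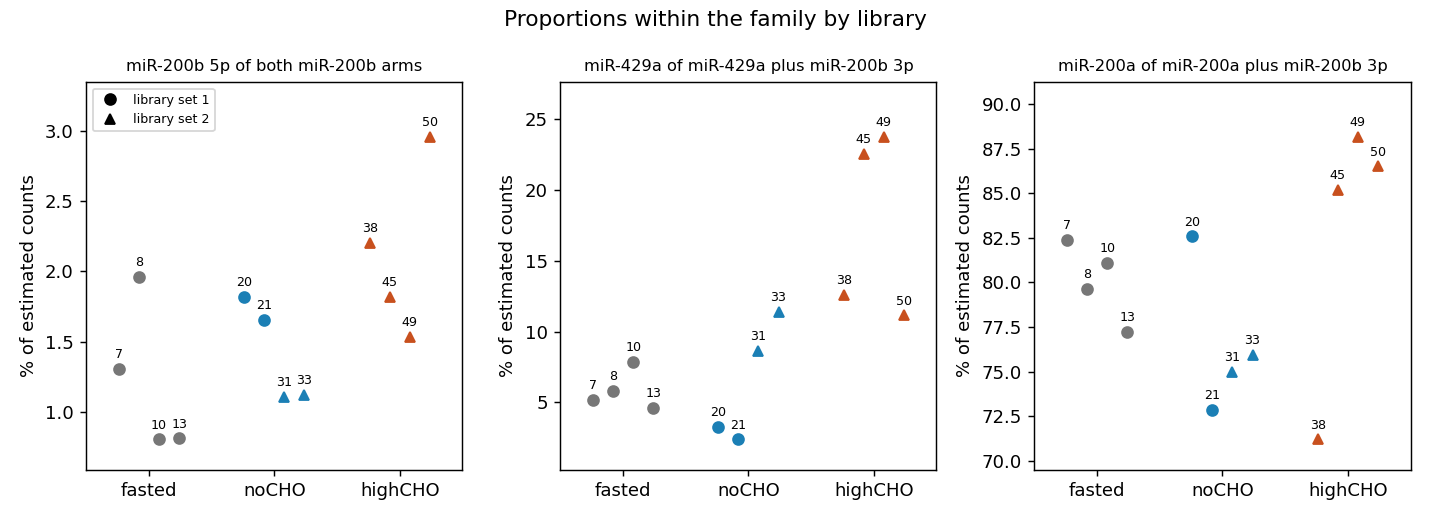
Shares within the family in each library, in percent of estimated counts, by group, with circles for library set 1, triangles for library set 2, fish numbers beside the points and no error bars. For dre-miR-429a among the sequences with its seed the highCHO fish lie between 11.1 and 23.8% and the fasted fish between 4.61 and 7.87%. The noCHO fish 31 and 33, of library set 2 like the highCHO fish, lie at 8.64 and 11.4%.

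Beyond the 4 members, 15 more rows carried the names miR-200, miR-429 or miR-141, and they were rare. Of these, ssa-miR-200a-2-5p had 74 counts, ssa-miR-200a-1-5p 61 and ssa-miR-200a-3-5p 20, all with the ATCTTAC seed of ssa-miR-200b-5p. Of the 61 counts of ssa-miR-200a-1-5p, 47 were in highCHO fish 38, 10 in highCHO fish 45 and 4 in fasted fish 13. Together these 3 strands reached 98 counts (51.1 CPM) in fish 38 and 11 counts (12.7 CPM) in fish 45, and at most 12 counts in any other library. The rows named as 5p strands of miR-200a and of miR-200b were thus highest in the same library. These names do not settle the hairpin. The bases of ssa-miR-200a-1-5p are also those of dre-miR-200c-5p_L+1 after its first base, so that row may hold reads of miR-200c. Named for miR-200c, of the other cluster in mammals, dre-miR-200c-3p_R+1_2ss11TG22CG had 19 counts over 8 libraries, 3 of them in fish 38. The predicted candidate PC-3p-27826_13, which has the miR-200a seed and differs from fru-miR-200a_R-1 by C17T over the first 21 bases, had 40 counts.

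The members were only partly correlated across libraries. Spearman's rho between pairs of members was 0.20 to 0.55 over the 12 libraries and -0.05 to 0.41 over the 11 libraries without fish 38, lowest between dre-miR-429a and ssa-miR-200b-5p in both. Between the 3p strands alone it was 0.48 to 0.55 and 0.33 to 0.41. The lower values came from ssa-miR-200b-5p, which had 1.5 to 14 counts outside fish 38. Sequences most like the summed family over 12 libraries were ccr-miR-27a (rho 0.80), the candidate PC-5p-1744_747 (0.76), ssa-let-7f-3p_R+1_2ss8AG22CT (0.75), ssa-miR-216b-5p (0.66), dre-miR-27b-3p_R-1 (0.63) and fru-miR-96_R-1 (0.63). Of these, PC-5p-1744_747 and ssa-miR-216b-5p were far higher in fish 38 than elsewhere, at 1102 CPM against at most 38.2 CPM and 8261 CPM against at most 78.6 CPM. Without fish 38 the closest were PC-5p-2366_467 (0.78), ccr-miR-27a (0.75), ssa-miR-30c-5p_R+1_1ss24TC (0.71) and ssa-miR-15c-5p, ssa-let-7f-3p_R+1_2ss8AG22CT and PC-5p-1744_747 (each 0.69). Of the 6 named sequences, 3 were shared between these orders. The points share libraries, group differences and library sets, and the values are descriptions.

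Other microRNAs of epithelia were examined beside the family, from families miR-203, miR-205, miR-183, miR-96, miR-182, miR-31, miR-194, miR-192, miR-215 and miR-34. The rows analysed held no counts of miR-31 or miR-215. Of the list's 36 sequences 14 were tested, and 0 were called by edgeR in any of the 3 contrasts, where 0% of all sequences were called in noCHO against fasted, 6.18% in highCHO against fasted and 2.35% in highCHO against noCHO. Fitted differences of highCHO from fasted were positive for 9 and negative for 5, with a median log2 of 0.41, and those of noCHO from fasted also split 9 to 5, with a median of 0.04. The sensory and epithelial pair dre-miR-183-5p and fru-miR-96_R-1, transcribed together in vertebrates, had 22.7 ± 8.41 and 16.0 ± 4.18 CPM in highCHO against 10.0 ± 2.33 and 7.15 ± 1.22 CPM in fasted fish (SD, n = 4), with adjusted p-values of 0.144 and 0.201 in edgeR's quasi-likelihood test. Skin-type ssa-miR-203a-3p was at 9.42 ± 6.31 CPM against 18.3 ± 5.03 CPM, with an adjusted p of 0.287 in the same edgeR test. For dre-miR-183-5p and fru-miR-96_R-1 fish 38, at 15.6 and 13.3 CPM, was not the highest library, unlike for the miR-200 sequences.

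Fish 38 was also highest for some rows of miR-192 and miR-194, the gut, liver and kidney miRNAs of this list. Its level of ipu-miR-192 was 53161 CPM, where no other library passed 25801 CPM, and its level of ssa-miR-194a-3p_R-2 was 236 CPM, where no other passed 63.2 CPM. For ssa-miR-194b-5p_R+2_2ss11TA18AG the values were 534 and 45.7 CPM. The tested rows of these families did not all differ alike in highCHO against noCHO fish, with fish 38 included. Their log2 differences ran from -0.05 (SE 0.40) for ssa-miR-192a-3p to 2.42 (SE 1.01) for ssa-miR-194b-5p_R+2_2ss11TA18AG. Summed, the epithelial list reached 57483 CPM in fish 38 and lay between 15693 and 27331 CPM in the other 11 libraries. Most of the sum in fish 38 was ipu-miR-192, at 53161 CPM, so it says little of the other rows of the list.

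The summed pancreas markers, like the family, were highest in fish 38. The pancreas list (miR-216, miR-217, miR-375 and miR-7) came to 14421 CPM there, 154.5 to 358 CPM in fasted, 195 to 243 CPM in noCHO and 173 to 228 CPM in the other highCHO fish. An endocrine marker of the list, dre-miR-375, was at 2500 CPM in fish 38 and at most 162 CPM elsewhere. The tested rows of the list did not all differ alike. In highCHO against noCHO fish, with fish 38 included, 3 had positive and 2 negative fitted differences. The negative ones were the miR-7 rows, fru-miR-7_R+2 at a log2 difference of -0.02 (SE 0.31) and ssa-miR-7a-3-3p_1ss22AC at -0.37 (SE 0.37). Of the pancreas list's 26 sequences 5 were tested, and 0 of them passed edgeR's threshold in any contrast, a count that says little beside the 0%, 6.18% and 2.35% called over all sequences. The hepatocyte miRNA miR-122 summed to 203611 CPM in fish 38, the lowest of the 12, where the other libraries had 232009 to 439022 CPM. Fish 45, 49 and 50, in which dre-miR-429a was 154.8, 132.7 and 35.4 CPM, had pancreas sums within the fasted range. The part of other cells in the family's levels was not tested.

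**Figure D4:**
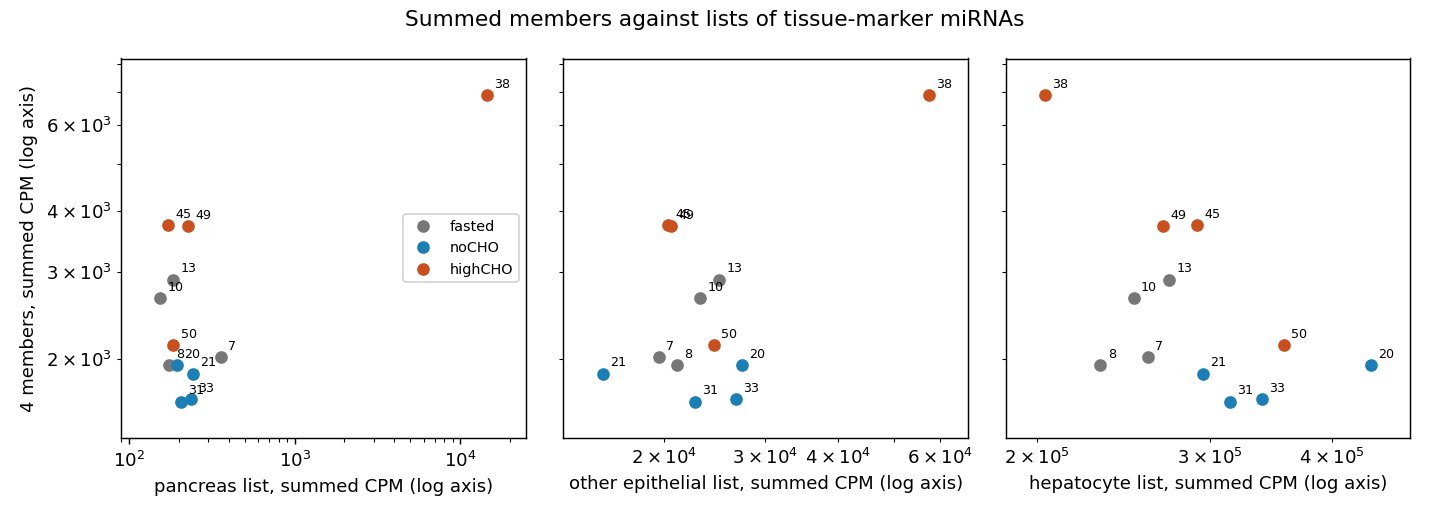
Summed level of the 4 members against the summed pancreas, other epithelial and hepatocyte lists in each library, in CPM on log axes, with 1 point per library, colored by group and marked with its fish number. Fish 38 lies apart at 14421 CPM for the pancreas list and at 57483 CPM, most of it ipu-miR-192, for the other epithelial list. The remaining highCHO fish share the range of the other groups on both.

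Lists for erythrocytes, leukocytes, endothelium, fibroblasts and smooth muscle, skeletal and cardiac muscle, and neural cells did not set fish 38 apart. Its summed level was 0.396 times that of the highest other library for erythrocyte miRNAs and 0.982 times for fibroblast and smooth muscle miRNAs, with the others between. For miRNAs linked to epithelial-mesenchymal transition and TGF-beta signalling (miR-21, miR-155, miR-145, miR-10, miR-101, miR-30, miR-205 and miR-34), the process that the miR-200 family opposes in mammals, 32 of 88 sequences were tested. In highCHO against fasted fish edgeR called 1 of them higher and 4 lower, where it called 11 higher and 10 lower of all 340 sequences (6.18%). In highCHO against noCHO fish it called 1 higher and 0 lower, where 4 of all sequences were called in each direction (2.35%), and in noCHO against fasted fish 0 either way. The one called higher against fasted came from miR-145, a smooth muscle miRNA, and was the row ssa-miR-145-3p_L+2R-1. Its level was 9558 ± 1672 CPM against 3209 ± 824 CPM (SD, n = 4), a log2 difference of 1.57 (SE 0.22) with an adjusted p of 0.00124 in edgeR's quasi-likelihood test. The other tested miR-145 rows differed less. In highCHO against noCHO fish the log2 difference was 0.04 (SE 0.37) for ola-miR-145_L+1R+4 and 0.80 (SE 0.41) for dre-miR-145-3p_L-2R+2. For ssa-miR-145-3p_L+2R-1 it was 1.19 (SE 0.22) in that contrast. Among the sequences called lower against fasted was dre-miR-101a, at 380 ± 91.1 CPM against 669 ± 107 CPM (log2 difference -0.81, SE 0.21, edgeR adjusted p 0.043). The medians of this list were 0.06 in noCHO and -0.14 in highCHO against fasted, beside 0.02 and 0.03 over all tested sequences. The list was not divided by whether its members favor or oppose that transition, so no direction of the process is read from its calls or medians.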

How the data were processed

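Small RNA libraries of 12 livers were read on an Illumina GAIIx, per the labels' design text. The deposited read summary gave, per library, counts of raw reads and of inserts under 15 and over 32 nt. The deposited miRNA table gave estimated counts per sequence, with shared reads divided into fractions (85.1% of values were whole), and the authors' normalized signal, the estimated count divided by 1 size parameter per library. That signal entered only an alternative sum. Suffixes of the names are the authors' own and were read as changes in length or bases. Bowtie 1.1.1 is named without its role, per the submitters' processing notes. For the genome build and the miRNA release, no statement was found in the sources used here. Genome positions were not analysed here.

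Estimated counts were rounded and fitted with edgeR 4.0.16 (R 4.3.3; TMM, expression filter by group, quasi-likelihood test, 3 contrasts, 9 residual degrees of freedom). Of the 1696 sequences 340 were tested, with 99.87% of counts, and tests were two-sided, with Benjamini-Hochberg adjustment and a threshold of 0.05. Each SE was derived from the log2 difference and its F statistic. The fit was tested on simulated data. Shares within the family were compared with exact permutation tests (scipy 1.17.1). The members and lists were chosen with earlier results of these data known. Named sequences are the 4 members, rows sharing their name or seed, the listed epithelial families, the 6 sequences with the highest Spearman correlation with the family sum, and the leading sequence of a cell-type list. Of the list of miRNAs linked to epithelial-mesenchymal transition, ssa-miR-145-3p_L+2R-1 and dre-miR-101a were chosen after their values were seen. The other tested miR-145 rows are given beside the first, and the tested miR-7 rows beside dre-miR-375. Alternatives were sample-total and median-ratio scaling, other filters, a robust fit, DESeq2 1.42.0, known names only, only the groups compared, library set or short inserts as a term, and each library left out. Library sets were defined from the data.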

Additional observations from a re-analysis of the deposited data

Results flagged for a closer look

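Highest of its group by a wide gap was highCHO fish 38 for a pair of members. The level of fru-miR-200b_R+1 in that fish was 1896 CPM, with the other 3 highCHO fish between 282 and 531 CPM, a gap of 0.846 of the group's whole range. The level of ssa-miR-200b-5p in the same fish was 42.7 CPM, with the others between 6.63 and 9.82 CPM, a gap of 0.912 of the range. Both came up in a screen of 27 groups of 4 libraries for a gap that chance gives in about 1 group in 20. The members were chosen on highCHO levels with this fish already singled out, so the gaps are descriptions and no test. The part of that library's pancreas markers and of its epithelial list, mostly ipu-miR-192, in these levels was not tested.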

How the results depend on the processing

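None of the 3 members tested in noCHO against fasted passed the threshold under any alternative run, and the lowest adjusted p was 0.237, for dre-miR-429a within library set 1, and 0.362 for fru-miR-200a_R-1. Small differences changed sign there: ssa-miR-200b-5p was -0.068 with sample-total scaling and -0.18 to 0.22 over libraries left out, dre-miR-429a -0.51 to 0.23, and its share -1.11 to 1.90 percentage points. Without highCHO fish 38, fru-miR-200b_R+1 was -0.19 against fasted and 0.021 against noCHO (-0.19 to 1.03 and 0.021 to 1.30 over libraries left out), and ssa-miR-200b-5p, unfiltered, 0.62 and 0.49, an alternative chosen after seeing the data. With library set as a term dre-miR-429a was 0.48 against fasted. The log2 differences of fru-miR-200a_R-1 kept their direction under every alternative run. Sequences called in noCHO against fasted numbered 4 unfiltered, 2 by DESeq2 and 0 to 2 with a library left out (2 without noCHO fish 20). In highCHO against fasted 21 were called, and 13 with sample-total scaling, 54 unfiltered, 13 with library set as a term, 3 with short inserts as a term, 35 by DESeq2 and 7 to 25 with a library left out (13 without fasted fish 7 or highCHO fish 45, 7 without fasted fish 8, 8 without fasted fish 10). In highCHO against noCHO 8 were called, 4 higher and 4 lower, and 3 (2 higher, 1 lower), 52, 18, 1 and 22 under the same alternatives, 4 with only the groups compared and 2 to 18 with a library left out (4 without fasted fish 8 or 10, 5 without noCHO fish 21, 2 without noCHO fish 31, 18 without highCHO fish 38). The cause was not tested. Sample-total scaling moved the median of all sequences from 0.02 to -0.17 (noCHO) and from 0.03 to -0.19 (highCHO) against fasted. Outside fish 38 ssa-miR-200b-5p had 1.5 to 14 counts and the summed rows named miR-200a 5p had 0 to 12, too few to show small differences. No paired analysis was possible because the groups share no replicate (fish) numbers.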
